A study of Homo sapiens with 38 samples.

Results

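The genes described are 8 members of the MCM family that the array annotation names: MCM2, MCM3, MCM4, MCM5, MCM6 and MCM7, which build the ring of the replicative helicase, and MCM8 and MCM10. They were found as the probe sets annotated to those symbols, which gave 18 of the 54613 probe sets on the array and 8 of 19775 genes. A gene was represented by its probe set with the highest mean over all 38 arrays. It was tested if that probe set exceeded log2 5 on at least 2 arrays of experiment 1, a level that 21.6 to 24.2% of all probe sets exceeded on an array. All 8 members passed and 8511 genes were tested in all. MCM10 passed through 5 arrays, all of growing cells. MCM2 and MCM5 passed through 13 arrays each, every one of growing cells or of cells with the hairpin against RB. MCM8 passed on 27 arrays and MCM3, MCM4, MCM6 and MCM7 on all 32. Growing arrays alone admitted MCM10, so its differences from growing cells of experiment 1 are given with no test. Counts of members against those cells are over the other 7. MCM2 and MCM5 are tested and counted, but the groups that admitted them are those where they are high. Their calls in experiment 1 against growing cells, and for the RB hairpin against other cells, are therefore not independent of the filter. Of the 18 member probe sets 13 passed the same filter. The 5 others, of which 2 belong to MCM4 and 1 each to MCM6, MCM8 and MCM10, were not tested.

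The cells were IMR90, a line of normal human lung fibroblasts that was derived from fetal tissue and stops dividing when oncogenic ras is expressed. In experiment 1 the cells expressed a short hairpin RNA that targets RB (called shRB), p107 (called shp107) or p130 (called shp130), or held the empty MLP vector. Each of these was profiled as senescent cells after ras, confluent cells, cells in low serum (0.1% FBS) and growing cells. There were 2 arrays per group and 32 arrays in all. Experiment 2 held senescent shRB cells, senescent vector cells and growing vector cells, again on 2 arrays each. In both experiments all groups other than low serum were in 10% FBS. Neither the ras allele nor the time since its introduction is stated in the sources used. The labels do not state that the 2 arrays of a group came from separate cultures, so every p-value measures only the spread between arrays, which may be technical.

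MCM2 to MCM7 are loaded onto replication origins in the G1 phase as a double ring, with the help of the origin recognition complex, CDC6 and CDT1, and this loading licenses the origin for the next S phase. CDC45 and the GINS complex then join the ring to make the active helicase. MCM10 is a separate protein that acts at the activation step and at the moving fork, and MCM8 pairs with MCM9 in a related helicase that serves homologous recombination. Most MCM genes are known targets of E2F transcription factors, which the RB family proteins RB, p107 and p130 bind and restrain, and quiescent and senescent cells generally hold little MCM mRNA.

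Promoters of the members are shown because the hairpins target proteins that act through E2F. The RefSeq table (GRCh38.p14) gave windows from 250 bases before to 50 bases after the start for MCM2, MCM3, MCM6, MCM7, MCM8 and MCM10, while MCM4 and MCM5 were not analysed here. Capitals mark every match to 4 E2F-type 8-mers, TTTGGCGC, TTTCGCGC, TTTCCCGC and TTTGCCGC, on either strand, with overlapping matches joined into 1 run. Positions count from the start, with the first transcribed base as +1 and the base before it as −1. The windows of MCM2 (chr3:127598161-127598460, plus strand), MCM3 (chr6:52284693-52284992, minus strand), MCM6 (chr2:135876394-135876693, minus strand), MCM7 at the first of its 3 starts (chr7:100101348-100101647, minus strand) and MCM10 (chr10:13161308-13161607, plus strand) read 5′ to 3′ as follows.
MCM2: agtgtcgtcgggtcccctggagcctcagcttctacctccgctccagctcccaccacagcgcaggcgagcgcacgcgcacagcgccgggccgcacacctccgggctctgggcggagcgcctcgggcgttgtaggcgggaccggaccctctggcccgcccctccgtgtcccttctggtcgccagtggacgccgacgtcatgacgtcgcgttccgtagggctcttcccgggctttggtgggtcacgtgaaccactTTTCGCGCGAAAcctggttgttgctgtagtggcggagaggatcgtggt
MCM3: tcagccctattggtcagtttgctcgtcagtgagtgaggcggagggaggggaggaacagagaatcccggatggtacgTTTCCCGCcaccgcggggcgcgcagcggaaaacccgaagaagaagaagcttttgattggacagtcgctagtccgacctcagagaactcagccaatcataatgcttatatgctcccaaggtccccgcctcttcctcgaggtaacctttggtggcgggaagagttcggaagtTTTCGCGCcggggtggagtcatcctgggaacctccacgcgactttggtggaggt
MCM6: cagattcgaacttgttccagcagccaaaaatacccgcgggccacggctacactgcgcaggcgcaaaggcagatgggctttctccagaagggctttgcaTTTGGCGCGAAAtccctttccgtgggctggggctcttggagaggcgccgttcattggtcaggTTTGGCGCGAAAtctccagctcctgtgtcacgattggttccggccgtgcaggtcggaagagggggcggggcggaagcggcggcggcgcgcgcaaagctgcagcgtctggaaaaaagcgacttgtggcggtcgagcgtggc
MCM7: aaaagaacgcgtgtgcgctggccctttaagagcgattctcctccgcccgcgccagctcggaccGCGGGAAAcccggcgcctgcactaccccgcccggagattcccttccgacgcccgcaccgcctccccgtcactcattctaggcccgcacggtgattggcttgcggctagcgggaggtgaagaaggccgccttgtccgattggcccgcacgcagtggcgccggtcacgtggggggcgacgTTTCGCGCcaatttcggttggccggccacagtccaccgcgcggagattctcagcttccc
MCM10: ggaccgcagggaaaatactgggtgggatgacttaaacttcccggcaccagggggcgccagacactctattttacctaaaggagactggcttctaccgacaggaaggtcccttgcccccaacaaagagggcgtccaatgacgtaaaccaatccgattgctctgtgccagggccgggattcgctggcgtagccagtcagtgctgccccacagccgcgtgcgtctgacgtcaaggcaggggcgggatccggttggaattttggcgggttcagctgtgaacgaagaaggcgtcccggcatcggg

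In the MCM2 window the capitals form the palindrome TTTCGCGCGAAA from +3 to +14, which matches on both strands. MCM6 held TTTGGCGCGAAA at −152 to −141 and again at −90 to −79. MCM3 held TTTCCCGC at −174 to −167 and TTTCGCGC across the start, from −4 to +4. The MCM7 window held GCGGGAAA, which is TTTCCCGC on the opposite strand, at −187 to −180, and TTTCGCGC at −9 to −2, while the windows of the other 2 MCM7 starts held no match. MCM8 (chr20:5950402-5950701, plus strand) held GCGCCAAA, the opposite strand of TTTGGCGC, at +27 to +34. MCM10 held no match. So 5 of the 6 genes with a window held a match in at least 1 window. Of the 35116 RefSeq windows of this length, 3.31% held a match and 0.145% held 2 or more. A match is only a stretch of letters, and binding was not measured.

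**Figure D1:**
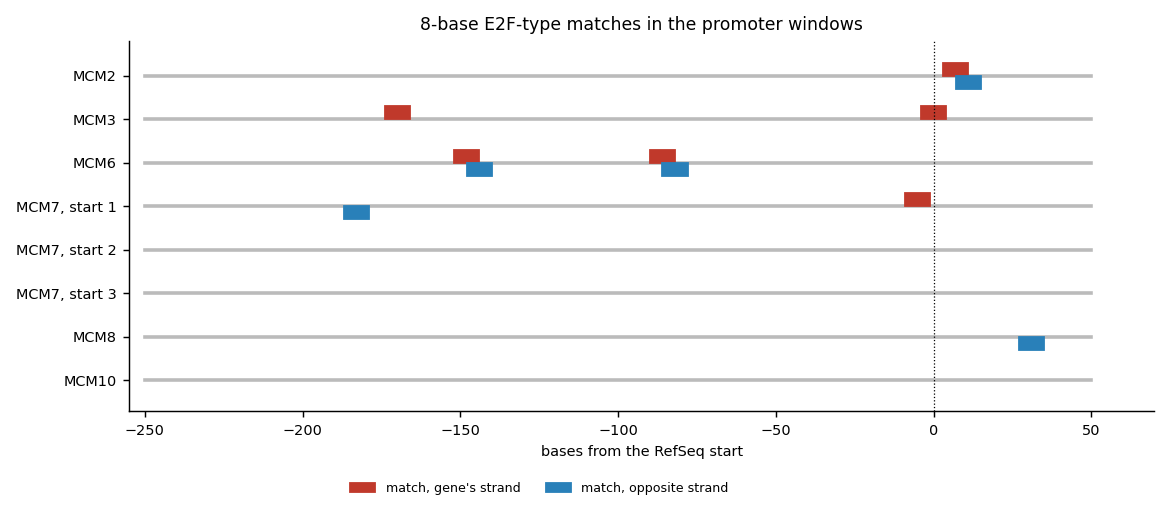
Positions of matches to the 4 E2F-type 8-mers (red bars on the strand of the gene, blue on the opposite strand) along each promoter window, in bases from the transcription start (dotted line), for the member genes with a window. MCM2, MCM3, MCM6, MCM7 at its first start and MCM8 hold at least 1 match, and MCM10 holds none.

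The arrays were comparable in range: their medians over all probe sets lay between 3.27 and 3.41, and the 2 arrays of a group correlated at 0.9795 to 0.9969 across probe sets. The confluent vector arrays differed most from each other (SD of their difference 0.794). RB1 averaged 4.06 on senescent shRB arrays, against 9.39 on senescent vector arrays of experiment 1, and 6.86 against 9.14 in experiment 2, and it was called lower in shRB cells in every state. RBL2, the gene of p130, was called lower in shp130 cells by 2.35 to 2.88 on the log2 scale over the 4 states. RBL1, the gene of p107, was near background, with group means of 3.02 to 3.57 in shp107 cells against 3.34 to 4.32 in vector cells, and was not called lower, so the arrays do not show the p107 knockdown. Of 8 fibroblast markers 6 exceeded log2 5 on every array, while none of 6 epithelial or 5 blood markers did on any array and 1 of 5 endothelial markers, TEK (5.61 to 9.52), did. In these bulk RNA samples, fewer cells with an MCM transcript and less transcript per cell cannot be told apart.

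All values below are log2 expression as deposited, in which 1 unit is a doubling, and levels of different genes are not compared because each probe set has its own response. MCM6, the subunit with the widest range, covered 4.38 units over the 16 groups of experiment 1. Its mean was highest in growing shRB cells (10.69 ± 0.43, SD, n = 2 here and for each mean that follows), then low-serum shRB (10.48 ± 0.26), senescent shRB (10.47 ± 0.24) and confluent shRB cells (10.02 ± 0.49). The 4 shRB groups therefore stood above every other group whatever the growth state. Growing vector (9.58 ± 0.06), growing shp130 (9.52 ± 0.03) and growing shp107 cells (9.45 ± 0.06) came next. The 3 low-serum groups without shRB followed at 8.86 to 9.06 and the 3 confluent ones at 8.56 to 8.79. The lowest places were held by senescent shp107 (7.20 ± 0.16), senescent vector (6.59 ± 0.11) and senescent shp130 cells (6.30 ± 0.46). Neighbours in this order overlapped on single arrays in 10 of 15 pairs, but the steps below confluent shRB, below growing shp107 and below confluent vector cells had no overlap.

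The other ring subunits kept growing shRB cells at or near the top of the order. They were highest for MCM2 (7.31 ± 0.14), MCM3 (8.49 ± 0.41), MCM5 (7.25 ± 0.32) and MCM7 (8.92 ± 0.30), and second for MCM4 (9.46 ± 0.02), which was highest in senescent shRB cells (9.71 ± 0.14). The lowest group differed: senescent shp130 for MCM2 (3.83 ± 0.08), low-serum shp130 for MCM3 (5.19), senescent shp107 for MCM4 (6.47 ± 0.43), and senescent vector for MCM5 (3.31 ± 0.21) and MCM7 (6.48 ± 0.64). MCM7 had a range of 2.44, and all 15 neighbour pairs overlapped, as did 13 for MCM3, 11 for MCM5, 9 for MCM4 and 8 for MCM2. MCM8 spanned only 1.73, with its maximum in growing shp130 cells (6.63 ± 0.36) and its minimum in confluent shRB cells (4.89 ± 0.45), a different order from the ring subunits. MCM10 spanned 1.24, from growing shRB (5.11 ± 0.13) down to low-serum shp107 cells (3.88 ± 0.26), with 14 overlapping pairs, and growing shRB was the only group of experiment 1 with a mean above the filter level of 5.

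**Figure D2:**
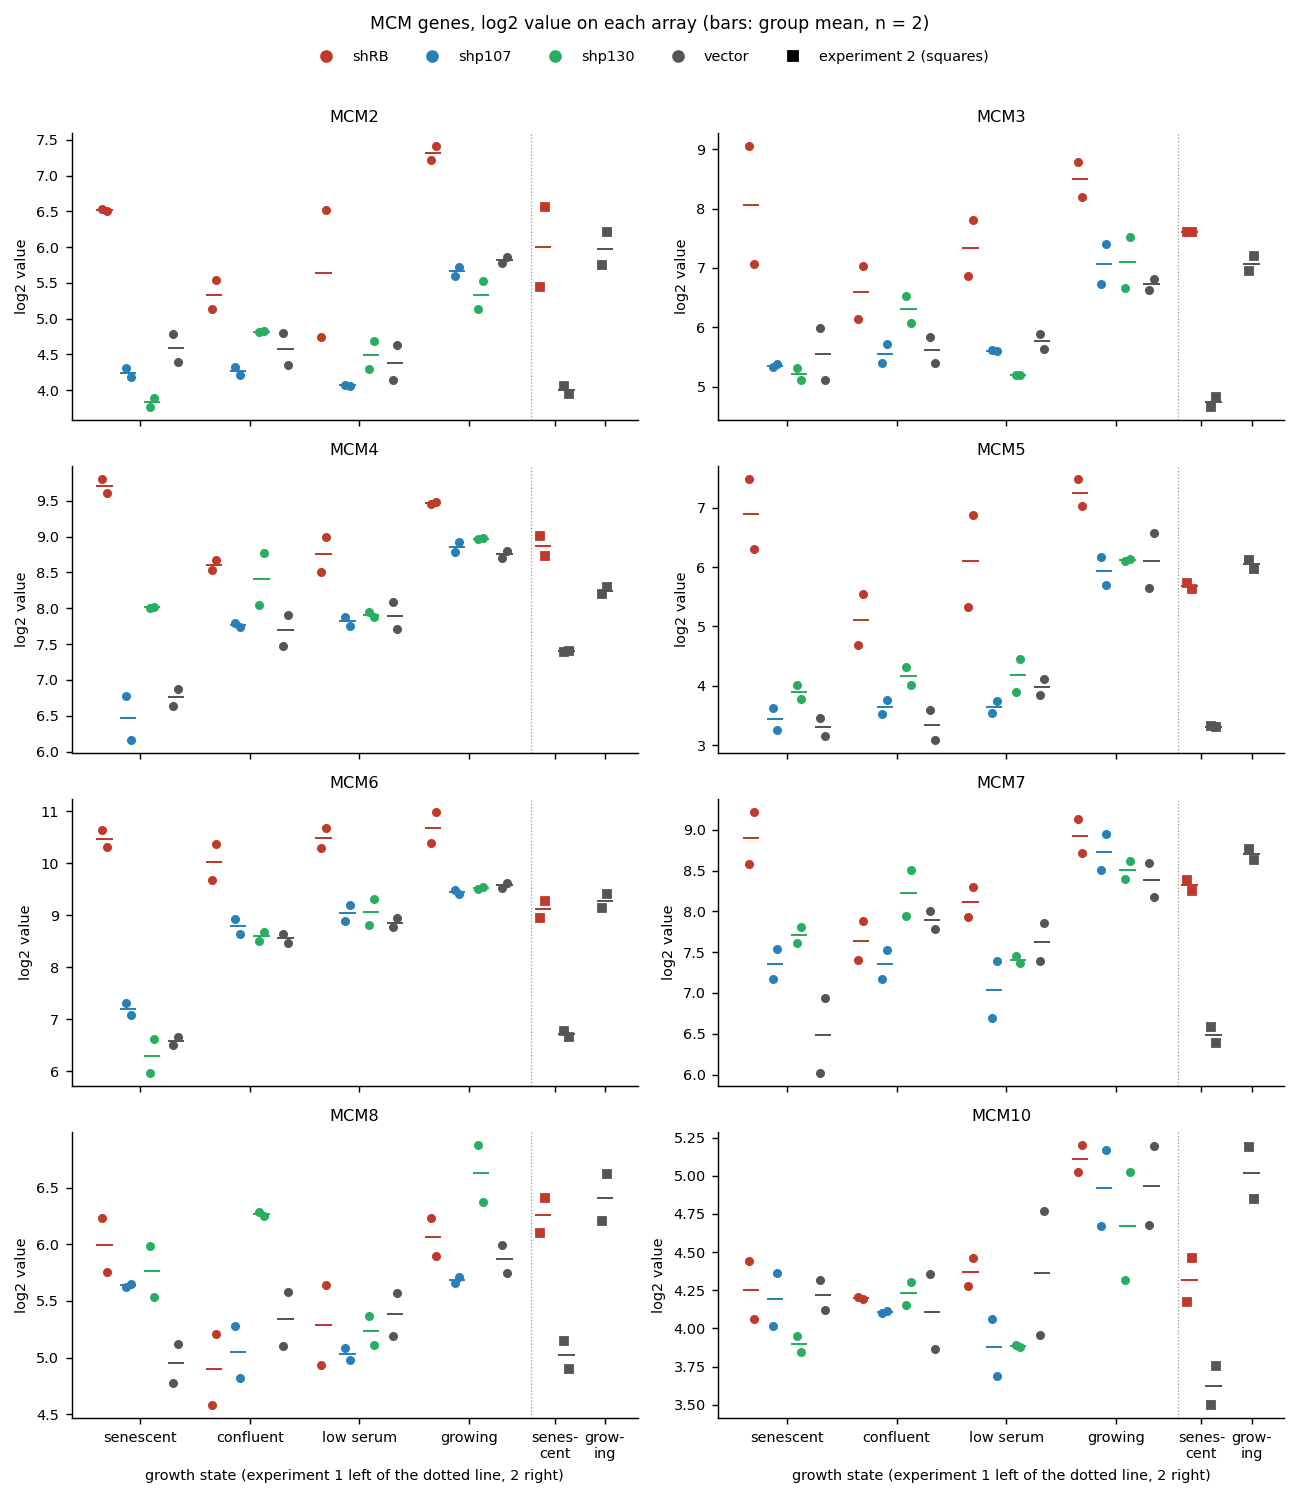
Log2 expression of each member (panel) on every array (points), by growth state, hairpin and experiment, with group means as lines. The shRB arrays are the highest of most states for MCM2 to MCM6, and the senescent arrays without shRB hold the lowest values for MCM6.

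Vector cells were compared first, which asks how the MCM genes follow growth state with the RB family present. In experiment 1 the senescent cells had lower MCM mRNA than growing cells for 6 of the 7 members counted, MCM2, MCM4, MCM5, MCM6, MCM7 and MCM8, by the limma test at an adjusted p under 0.05. Of all tested genes 16.2% were called lower in this comparison. The calls of MCM2 and MCM5 against growing cells of experiment 1, here and below, are not independent of the filter. The median change of MCM2 to MCM7 was −1.95, against −0.10 over all tested genes. In experiment 2 all 8 members were called lower in senescent vector cells, where 20.6% of tested genes were, and the median of MCM2 to MCM7 was −2.27.

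MCM6 read 6.52 and 6.67 on the senescent vector arrays, against 9.53 and 9.62 on the growing vector arrays of experiment 1. The groups were about 3 log2 units apart with no overlap (−2.98 ± 0.26, SE, 7.91-fold lower, adjusted p = 2.76e-08). In experiment 2 MCM6 read 6.77 and 6.66 in senescent vector cells, against 9.14 and 9.41 in growing vector cells (−2.56 ± 0.19, adjusted p = 1.95e-05). MCM5 read 3.46 and 3.16, against 5.64 and 6.58 (−2.80 ± 0.43, adjusted p = 4.31e-05), and in experiment 2 it read 3.33 and 3.30, against 6.13 and 5.96 (−2.73 ± 0.16, adjusted p = 5.19e-06). The senescent MCM5 values lay at about the median of all probe sets, which is background, so the sizes of these falls are uncertain. The second MCM5 probe set differed by −1.04 in experiment 1 and −1.72 in experiment 2, and was called lower in both. MCM7 read 6.02 and 6.94 in senescent vector cells, against 8.59 and 8.18 in growing vector cells (−1.90 ± 0.32, adjusted p = 0.000124), and 6.58 and 6.39, against 8.76 and 8.63, in experiment 2 (−2.22 ± 0.17, adjusted p = 2.15e-05). All senescent arrays were below all growing arrays for these 3 genes in both experiments.

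MCM4 read 6.63 and 6.88 in senescent vector cells, against 8.71 and 8.80 in growing vector cells (−2.0 ± 0.23, adjusted p = 1.83e-06). In experiment 2 it read 7.39 and 7.40, against 8.19 and 8.30 (−0.85 ± 0.17, adjusted p = 0.00525), and that call was lost without either senescent vector array (adjusted p = 0.0602 without replicate 1 and 0.0583 without replicate 2). MCM2 read 4.79 and 4.39 in senescent vector cells, against 5.78 and 5.86 in growing vector cells of experiment 1 (−1.23 ± 0.35, adjusted p = 0.0119), and 4.06 and 3.95, against 5.75 and 6.21, in experiment 2 (−1.97 ± 0.34, adjusted p = 0.00207). Its call in experiment 1 did not hold when growing vector replicate 2 (adjusted p = 0.072) or senescent vector replicate 2 (0.109) was left out. MCM3 read 5.99 and 5.11, against 6.63 and 6.82, in experiment 1 (−1.18 ± 0.47, adjusted p = 0.0738), and 4.66 and 4.82, against 6.94 and 7.20, in experiment 2 (−2.33 ± 0.17, adjusted p = 1.85e-05). The ring subunits were thus lower in senescence in both experiments, with MCM3 past the threshold in experiment 2 alone. The change of each member was then tested for a difference between the experiments. None was called by limma, where 1.5% of tested genes were called in either direction. An unadjusted p under 0.05 was seen for 1 member, MCM4 (difference −1.15 ± 0.31, adjusted p = 0.0651), and for 1120 tested genes.

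Both members outside the ring had lower means in senescent cells. MCM8 read 4.78 and 5.12 in senescent vector cells, against 5.99 and 5.75 in growing vector cells (−0.92 ± 0.28, adjusted p = 0.0183), a call lost without growing vector replicate 1 (0.127) or senescent vector replicate 1 (0.152). In experiment 2 it read 5.15 and 4.90, against 6.21 and 6.62 (−1.39 ± 0.21, adjusted p = 0.00107). MCM10, near the detection limit, read 4.32 and 4.12, against 4.68 and 5.19 (−0.72 ± 0.27, no test), and 3.50 and 3.76, against 5.19 and 4.84, in experiment 2 (−1.39 ± 0.20, adjusted p = 0.000854).

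Growth arrest without ras also went with lower MCM mRNA in vector cells. In confluent cells 4 of the 7 members counted, MCM2, MCM4, MCM5 and MCM6, were called lower, where 14.5% of tested genes were, and the median of MCM2 to MCM7 was −1.09. In low serum 3 members, MCM2, MCM4 and MCM5, were called lower, where 6.36% of tested genes were, and the median was −0.91. By representative probe set MCM5 showed the largest change in both. It read 3.60 and 3.10 in confluent cells (−2.76 ± 0.43, adjusted p = 7.72e-05), against 5.64 and 6.58 in growing cells, with the confluent values again near background. In low serum it read 3.85 and 4.12 (−2.12 ± 0.43, adjusted p = 0.00217), below the filter level. The second MCM5 probe set fell less and was called in neither state, while the second MCM7 probe set was called in low serum. MCM6 read 8.65 and 8.47 in confluent cells (−1.02 ± 0.26, adjusted p = 0.00642) and 8.78 and 8.95 in low serum (−0.72 ± 0.26, adjusted p = 0.0724), against 9.53 and 9.62 in growing cells. No array of MCM5 or MCM6 overlapped between either arrested state and growing cells. MCM2 (−1.24 confluent, adjusted p = 0.0117, and −1.43 in low serum, adjusted p = 0.0091) and MCM4 (−1.06, adjusted p = 0.00226, and −0.86, adjusted p = 0.0194) were called in both states. MCM10 differed by −0.82 in confluent cells and −0.57 in low serum, with no test. MCM7 (−0.50 and −0.76), MCM3 (−1.11 and −0.96) and MCM8 (−0.53 and −0.49) were not called in confluent cells or in low serum. These calls rested on few arrays, and a fit with 1 array left in a group is less precise even where the change stays similar. In the fits without growing vector replicate 2 the low-serum changes were −1.39 for MCM2, −0.81 for MCM4 and −1.65 for MCM5. The confluent changes were −1.20 for MCM2 and −0.97 for MCM6. Without growing vector replicate 2 all 3 low-serum calls were lost (MCM2 0.0718, MCM4 0.13, MCM5 0.0626) and so were those of MCM2 (0.0844) and MCM6 (0.0604) in confluent cells, and without confluent vector replicate 2 that of MCM2 (0.0917) was lost. In low serum MCM4 also lost its call without growing vector replicate 1 (0.0693) or low-serum vector replicate 2 (0.148), and MCM2 without low-serum vector replicate 1 (0.125).

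Senescent vector cells were also set against the other arrested vector cells. MCM4, MCM6 and MCM7 were lower in senescence than in low serum (−1.14, −2.27 and −1.14), where 23.8% of tested genes were called lower, and lower than in confluence (−0.94, −1.97 and −1.41), where 18.8% were. MCM6 carried the largest difference, with 6.52 and 6.67 in senescent cells, against 8.78 and 8.95 in low serum (adjusted p = 6.75e-07) and 8.65 and 8.47 in confluence (adjusted p = 8.21e-06). Without senescent vector replicate 1, where MCM7 read 6.02, MCM7 was not called against low serum (−0.69, adjusted p = 0.169) or against confluence (−0.95, adjusted p = 0.0626). The MCM7 call against low serum was also lost without low-serum vector replicate 2 (0.0843), and the MCM4 call against confluence without confluent vector replicate 2 (0.0673) or senescent vector replicate 1 (0.0514). MCM2 (0.20 and 0.01) and MCM3 (−0.21 and −0.07) had overlapping arrays in both comparisons.

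Suppression of RB in senescent cells asks which MCM genes change when RB is reduced in cells that express ras. The shRB cells are labelled senescent, and whether they had arrested was not measured here. The shRB cells had higher mRNA for 7 of 8 members in experiment 1, MCM2 to MCM8, where 5.98% of tested genes were called higher. The calls of MCM2 and MCM5 for shRB in experiment 1, here and below, are not independent of the filter. All 8 members were called higher in experiment 2, where 10.9% of tested genes were. The median change of MCM2 to MCM7 was 2.73 in experiment 1 and 2.19 in experiment 2, with medians over all genes near 0.

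MCM6 read 10.64 and 10.31 in senescent shRB cells, against 6.52 and 6.67 in senescent vector cells (3.88 ± 0.26, 14.7-fold, adjusted p = 1.95e-09). The shRB arrays were above every growing vector array as well. In experiment 2 it read 8.94 and 9.28, against 6.77 and 6.66 (2.40 ± 0.19, adjusted p = 0.000287). MCM4 read 9.81 and 9.61, against 6.63 and 6.88 (2.95 ± 0.23, 7.75-fold, adjusted p = 2.19e-08), and in experiment 2 it read 9.01 and 8.73, against 7.39 and 7.40 (1.47 ± 0.17, adjusted p = 0.0013). MCM5 read 7.48 and 6.31, against 3.46 and 3.16 (3.59 ± 0.43, adjusted p = 7.44e-06), and 5.74 and 5.64, against 3.33 and 3.30, in experiment 2 (2.37 ± 0.16, adjusted p = 0.000195), with the vector values again at background. All shRB arrays lay above all vector arrays for these 3 subunits.

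MCM7 read 8.58 and 9.22 in senescent shRB cells, against 6.02 and 6.94 in senescent vector cells (2.42 ± 0.32, adjusted p = 2.51e-05), and 8.38 and 8.25, against 6.58 and 6.39, in experiment 2 (1.83 ± 0.17, adjusted p = 0.000457). MCM2 read 6.53 and 6.50, against 4.79 and 4.39 (1.93 ± 0.35, adjusted p = 0.000799), and 5.45 and 6.57, against 4.06 and 3.95, in experiment 2 (2.00 ± 0.34, adjusted p = 0.00613). The experiment 2 call of MCM2 was lost without senescent vector replicate 2 (adjusted p = 0.052). MCM3 had the most uneven pair: it read 9.05 and 7.06, against 5.99 and 5.11 (2.51 ± 0.47, adjusted p = 0.00123), and without the high shRB array, replicate 1, the change was 1.51 (adjusted p = 0.0507). Its experiment 2 pair was even, with 7.61 on both arrays, against 4.66 and 4.82 (2.87 ± 0.17, adjusted p = 0.00015). So the 6 ring subunits were higher with shRB in both experiments, with no overlap between groups.

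MCM8, the recombination helicase, read 6.24 and 5.76 in senescent shRB cells, against 4.78 and 5.12 in senescent vector cells (1.05 ± 0.28, adjusted p = 0.0177). That call was lost without senescent vector replicate 1 (0.88, adjusted p = 0.156) or senescent shRB replicate 1 (0.81, adjusted p = 0.182). In experiment 2 it read 6.10 and 6.41, against 5.15 and 4.90 (1.23 ± 0.21, adjusted p = 0.0065, and 0.0905 without senescent vector replicate 2). MCM10 did not separate in experiment 1: it read 4.44 and 4.06, against 4.32 and 4.12 (0.03 ± 0.27, adjusted p = 0.974). In experiment 2 it read 4.18 and 4.46, against 3.50 and 3.76 (0.69 ± 0.20, adjusted p = 0.0451), and lost the call without any 1 of the 4 arrays (adjusted p = 0.058 to 0.313).

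**Figure D3:**
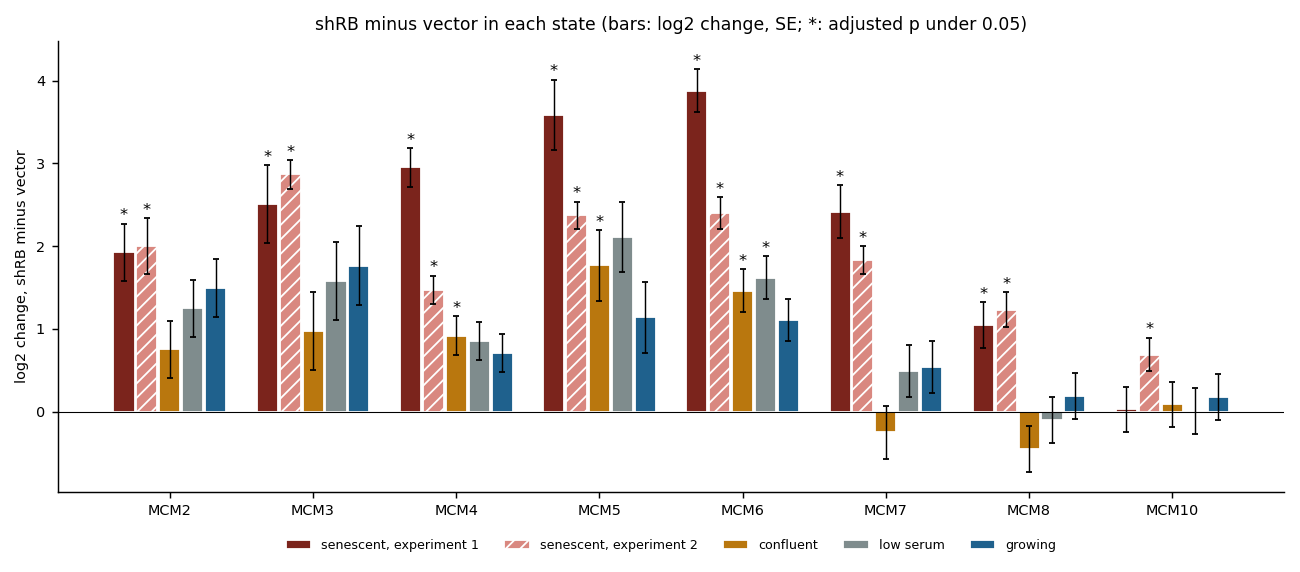
Log2 difference, shRB minus vector, for each member (bars, with SE; an asterisk marks an adjusted p under 0.05), by growth state in experiment 1 and for senescent cells in experiment 2. For MCM4 to MCM7 the senescent bar of experiment 1 is the tallest, and MCM10 stays near 0 in experiment 1.

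In growing cells no member was called for shRB against vector by limma, where 0.188% of all tested genes were called in either direction. An unadjusted p under 0.05 was seen for 5 members and for 537 of the 8511 tested genes. MCM2 read 7.21 and 7.41 in growing shRB cells, against 5.78 and 5.86 in growing vector cells (1.49 ± 0.35, adjusted p = 0.0644). MCM3 read 8.78 and 8.20, against 6.63 and 6.82 (1.77 ± 0.47, adjusted p = 0.133). MCM6 read 10.38 and 10.99, against 9.53 and 9.62 (1.11 ± 0.26, adjusted p = 0.066). The shRB arrays were above the vector arrays for all 6 ring subunits, with a median difference of 1.13, and overlapped them for MCM8 (0.19) and MCM10 (0.18).

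In low serum 1 member, MCM6, was called higher with shRB, where 0.0587% of tested genes were. It read 10.30 and 10.67, against 8.78 and 8.95 in low-serum vector cells (1.62 ± 0.26, adjusted p = 0.0122). That call was lost without low-serum vector replicate 1 (0.0793), low-serum vector replicate 2 (0.0787) or low-serum shRB replicate 2 (0.0556). The 2 low-serum shRB arrays differed: MCM2 read 4.74 and 6.53, MCM5 5.33 and 6.87, and MCM3 6.86 and 7.81. The array with less MCM mRNA, replicate 1, also had less RB1 (4.73, against 6.45 on replicate 2). Whether the amount of RB1 bears on the MCM level was not tested. Without replicate 1 MCM2 (2.14, adjusted p = 0.000177) and MCM5 (2.88, adjusted p = 0.00303) were called too, against 1.25 (adjusted p = 0.253) and 2.11 (adjusted p = 0.0707) with both arrays.

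In confluent cells 3 members were called higher with shRB, where 7% of tested genes were. MCM6 read 9.68 and 10.37, against 8.65 and 8.47 (1.46 ± 0.26, adjusted p = 0.000422), and kept its call without any 1 array. MCM5 read 4.68 and 5.55, against 3.60 and 3.10 (1.77 ± 0.43, adjusted p = 0.00588, and 0.091 without confluent shRB replicate 2). MCM4 read 8.54 and 8.68, against 7.47 and 7.91 (0.92 ± 0.23, adjusted p = 0.00916, and 0.133 without confluent vector replicate 1 or 0.0636 without confluent shRB replicate 2). MCM7 (−0.25), MCM8 (−0.44) and MCM10 (0.09) overlapped between the confluent groups. The median over MCM2 to MCM7 was 0.95 in confluent cells and 1.41 in low serum. In confluence 13.5% of tested genes were called in either direction for shp107 against vector, and 0.0235% for shRB against shp107. The confluent shRB and shp107 arrays thus lay closer to each other than to vector arrays. For MCM2 to MCM7 the medians were 0.006 and 1.05 in those comparisons, with no member called in either. Whether that closeness bears on the shRB calls was not tested.

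Whether shRB acted differently by state was tested as the difference between 2 shRB effects. Senescent minus growing was called for 4 members, where 1.34% of tested genes were called higher: MCM4 (2.25 ± 0.33, adjusted p = 0.000483), MCM5 (2.45 ± 0.60, adjusted p = 0.0344), MCM6 (2.77 ± 0.37, adjusted p = 0.000117) and MCM7 (1.88 ± 0.45, adjusted p = 0.0291). These were the representative probe sets. The other tested ones gave 0.40 and 1.27 for MCM4, 0.42 for MCM5 and 1.27 for MCM7 and none was called, while MCM6 has no other tested probe set. With the mean of all probe sets of a gene MCM4 (0.80, adjusted p = 0.134) and MCM5 (1.43, adjusted p = 0.109) were not called, while MCM6 (1.53, adjusted p = 0.00289) and MCM7 (1.58, adjusted p = 0.035) were. MCM4 and MCM6 kept the call without any 1 array, while MCM5 lost it in 6 and MCM7 in 4 of the 8 fits without 1 array. For MCM5 these were the fits without growing vector replicate 2 (0.172), growing shRB replicate 1 (0.0686) or 2 (0.163), senescent vector replicate 1 (0.0628) or 2 (0.154), or senescent shRB replicate 1 (0.184). For MCM7 they were those without growing vector replicate 1 (0.18), growing shRB replicate 2 (0.158), senescent vector replicate 1 (0.16) or senescent shRB replicate 2 (0.141). For MCM2 (0.43 ± 0.49, adjusted p = 0.85), MCM3 (0.74 ± 0.67, adjusted p = 0.773) and MCM8 (0.85 ± 0.39, adjusted p = 0.394) the difference was not called, and for MCM10 it was −0.15 ± 0.39. For low serum minus growing no member and 0% of all tested genes were called by limma. An unadjusted p under 0.05 was seen for 0 members and 307 tested genes. For confluent minus growing no member was called, where 2.55% of tested genes were. Here 0 members and 1337 tested genes had an unadjusted p under 0.05.

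**Figure D4:**
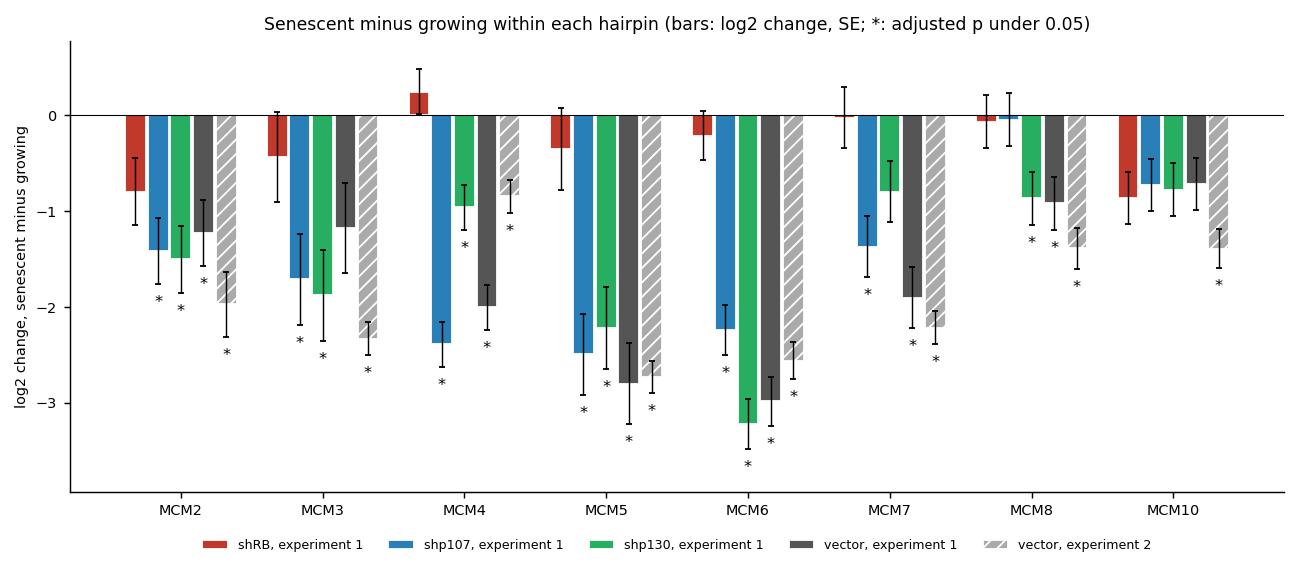
Log2 difference, senescent minus growing, for each member (bars, with SE; an asterisk marks an adjusted p under 0.05) within shRB, shp107, shp130 and vector cells of experiment 1 and vector cells of experiment 2. Bars of MCM10 in experiment 1 were not tested and carry no asterisk. Of the other 7 members none is called in shRB cells, and in shp107 cells all but MCM8 are.

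The same contrast can be read within each hairpin. In shRB cells none of the 7 members counted was called lower in senescent than in growing cells, where 20.4% of tested genes were. Of the 7 only MCM2 had an unadjusted limma p under 0.05, as did 3610 tested genes in either direction. MCM10 differed by −0.86 ± 0.27, with no test. MCM4 (0.24), MCM7 (−0.02), MCM8 (−0.07), MCM6 (−0.21), MCM5 (−0.35) and MCM2 (−0.80) were not called between senescent and growing shRB cells. MCM3 (−0.44, adjusted p = 0.517) became −1.43 (adjusted p = 0.0223) without senescent shRB replicate 1. In shp107 cells 6 of the 7 were called lower in senescence, where 21% of tested genes were, with MCM4 (−2.39), MCM5 (−2.49) and MCM6 (−2.24) the largest and MCM8 (−0.05) not called. In shp130 cells 6 of the 7 were called lower, where 20.1% were, with MCM6 (−3.22 ± 0.26, adjusted p = 5.77e-09) the largest and MCM7 (−0.80, adjusted p = 0.0605) not called. The call of MCM3 in shp107 cells was lost without growing shp107 replicate 2 (0.0799). In shp130 cells that of MCM3 was lost without growing shp130 replicate 2 (0.0729) and that of MCM8 without growing shp130 replicate 1 (0.22) or senescent shp130 replicate 2 (0.197).

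Confluent and low-serum cells were compared with growing cells within each hairpin too, and most of these calls were lost without some 1 array. In confluent shRB cells 6 of the 7 members counted were lower than in growing shRB cells, where 8.04% of tested genes were. MCM2 (−1.98 ± 0.35, adjusted p = 0.000834) kept its call without any 1 array and the other 5 did not, among them MCM5 (−2.13, and −1.70 with an adjusted p of 0.0705 without confluent shRB replicate 1). MCM6 (−0.66) was not called but became −1.01 (adjusted p = 0.0413) without confluent shRB replicate 2. In low-serum shRB cells 1 member was lower, MCM2 (−1.68, adjusted p = 0.00416), where 3.54% of tested genes were, and the call was lost without low-serum shRB replicate 1 (−0.79, adjusted p = 0.104) or growing shRB replicate 2 (0.0511). Without low-serum shRB replicate 2 the count was 4, with MCM2 at −2.57 (adjusted p = 5.38e-06), MCM4 at −0.96 (0.0434), MCM5 at −1.91 (0.0121) and MCM8 at −1.13 (0.0375). In shp107 cells 4 of the 7 were lower in low serum, where 3.44% of tested genes were, and 4 in confluence, where 4.63% were. Of those calls 3 and 3 were lost without some 1 array. In shp130 cells 5 were lower in low serum, where 5.09% were, and 2 in confluence, where 10.4% were, of which 4 and 1 were lost. MCM4 in confluent shp130 cells, not called with all arrays (−0.56), was called without confluent shp130 replicate 2 (−0.92, adjusted p = 0.0182). MCM5 was called in these 4 comparisons, by −2.29 and −2.29 in shp107 cells and by −1.94 and −1.96 in shp130 cells, in low serum and confluence in that order. It lost the call only in low-serum shp130 cells, without low-serum shp130 replicate 1 (−1.66, adjusted p = 0.076).

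The hairpins against the other 2 RB family members were compared with vector in the same way. With shp107 no member was called by limma in any state. The share of all tested genes called was 0% in growing cells, 0.0352% in low serum, 13.5% in confluence and 7.84% in senescence. Members with an unadjusted p under 0.05 numbered 0, 0, 0 and 3 in those states. Of the 8511 tested genes 117, 354, 2171 and 1850 had an unadjusted p under 0.05, in the same order. The 3 in senescence were MCM6 (0.61 ± 0.26, adjusted p = 0.17), MCM7 (0.87 ± 0.32, adjusted p = 0.103) and MCM8 (0.69 ± 0.28, adjusted p = 0.149). MCM7 passed the threshold without senescent vector replicate 2 (1.33, adjusted p = 0.043).

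With shp130 no member was called in growing cells, in low serum or in confluence, where 0.0587%, 0.27% and 0.0235% of tested genes were. Members with an unadjusted p under 0.05 numbered 1, 0 and 2 there, and tested genes 379, 471 and 456. In senescent cells MCM4 was called higher, where 0.775% of tested genes were. It read 8.0 and 8.02 in senescent shp130 cells, against 6.63 and 6.88 in senescent vector cells (1.26 ± 0.23, adjusted p = 0.00657). The call was lost without senescent vector replicate 1 (0.0737), senescent shp130 replicate 1 (0.052) or replicate 2 (0.0605), and the other 2 tested MCM4 probe sets differed by 0.32 and 0.02 and were not called. MCM7 read 7.61 and 7.81, against 6.02 and 6.94 (1.23 ± 0.32, adjusted p = 0.0521, and 0.0348 without senescent vector replicate 2). MCM2 read 3.77 and 3.89, against 4.79 and 4.39 (−0.76 ± 0.35, adjusted p = 0.374). MCM8, whose 2 highest group means within experiment 1 were those of growing and confluent shp130 cells, read 6.29 and 6.25 in confluent shp130 cells, against 5.10 and 5.58 in vector cells (0.93, adjusted p = 0.542), and 6.88 and 6.37 in growing shp130 cells, against 5.99 and 5.75 (0.76, adjusted p = 0.927).

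Direct comparison of the hairpins tests whether shRB differs from the other 2. In senescent cells the 6 ring subunits were higher with shRB than with shp107, where 11.6% of tested genes were, by 1.54 (MCM7, adjusted p = 0.00175) to 3.45 (MCM5, adjusted p = 9.89e-06), and no call was lost without any 1 array. They were also higher than with shp130, where 7.87% were, by 1.19 (MCM7, adjusted p = 0.0162) to 4.17 (MCM6, adjusted p = 6.55e-10). The MCM7 call against shp130 was lost without senescent shRB replicate 2 (0.87, adjusted p = 0.166) or either shp130 array (0.116 and 0.0588). MCM3 differed by 1.71 from shp107 and by 1.85 from shp130 without senescent shRB replicate 1, against 2.70 and 2.84 with it. MCM8 and MCM10 were not called in either comparison.

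Outside senescence fewer members separated shRB from the other hairpins. Against shp107, MCM5 (2.45, adjusted p = 0.0233) and MCM6 (1.45, adjusted p = 0.0266) were higher in low serum, where 0.0587% of tested genes were, and both calls were lost without low-serum shRB replicate 2 (0.133 and 0.121) or either shp107 array (0.195 to 0.336). Without low-serum shRB replicate 1 MCM2 was called as well (2.46, adjusted p = 2.56e-05, against 1.57 and 0.166 with it). In growing and in confluent cells no member was called by limma against shp107, where 0.0117% and 0.0235% of all tested genes were. In each, 5 members had an unadjusted p under 0.05, as did 247 tested genes in growing and 609 in confluent cells. Against shp130, MCM2 (1.98, adjusted p = 0.00336) and MCM6 (1.16, adjusted p = 0.0257) were higher in growing cells, where 0.646% of tested genes were. Both calls were lost without growing shRB replicate 2 (0.06 and 0.292) or growing shp130 replicate 1 (0.0697 and 0.187), and that of MCM6 also without growing shp130 replicate 2 (0.179). MCM6 was higher in low serum (1.42, adjusted p = 0.0181), where 0.211% were, and lost that call without low-serum shRB replicate 2 (0.128) or low-serum shp130 replicate 1 (0.308). Without low-serum shRB replicate 1 MCM2 (2.04), MCM3 (2.62) and MCM5 (2.69) were called against shp130 too. In confluence MCM6 was higher (1.42, adjusted p = 0.000517), where 7.61% were, and MCM8 was lower (−1.37, adjusted p = 0.00142), where 11.1% were called lower. MCM8 read 4.58 and 5.21 in confluent shRB cells, against 6.29 and 6.25 in confluent shp130 cells. Both confluent calls held without any 1 array, which does not address a difference shared by whole groups. Confluent shp107 cells had a mean of 5.05 ± 0.33 for MCM8, against 4.89 ± 0.45 in confluent shRB cells. The low MCM8 level was thus not particular to shRB. For MCM6 the means of confluent shp107 and shRB cells were 8.79 ± 0.20 and 10.02 ± 0.49.

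Senescent shRB cells of experiment 2 were also set against growing vector cells of the same experiment. MCM3 (7.61 and 7.61, against 6.94 and 7.20) and MCM4 (9.01 and 8.73, against 8.19 and 8.30) were higher (0.54, adjusted p = 0.0435, and 0.62, adjusted p = 0.0245), where 15% of tested genes were. MCM10 (4.18 and 4.46, against 5.19 and 4.84) was lower (−0.70, adjusted p = 0.0287), where 18.4% were called lower. Each of the 3 calls was lost without growing vector replicate 1 (0.126, 0.0612 and 0.0993) or senescent shRB replicate 1 (0.111, 0.115 and 0.129), and that of MCM3 also without senescent shRB replicate 2 (0.111). MCM2 (0.03), MCM6 (−0.16) and MCM8 (−0.16) overlapped between the groups. MCM5 (5.74 and 5.64, against 6.13 and 5.96) and MCM7 (8.38 and 8.25, against 8.76 and 8.63) were lower on both senescent shRB arrays, with no overlap, and were not called (−0.36, adjusted p = 0.128, and −0.38, adjusted p = 0.119).

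The shRB effect in senescent cells was larger in experiment 1 than in experiment 2 for MCM4 (difference 1.48 ± 0.31, adjusted p = 0.0157) and MCM6 (1.48 ± 0.35, adjusted p = 0.0378), where 0.728% of tested genes were called in that direction. The other 2 tested MCM4 probe sets gave −0.43 and 0.88 and were not called. With the mean of all probe sets of a gene the difference was 0.08 for MCM4 (adjusted p = 0.931) and 0.50 for MCM6 (adjusted p = 0.38), and neither was called. For both genes that mean includes probe sets near background that failed the filter, and their part in the smaller differences was not tested. RB1 differed by −5.32 between shRB and vector cells in experiment 1 and by −2.28 in experiment 2, and its part in the MCM difference was not tested. The MCM4 call was lost without replicate 1 of senescent vector (0.0673) or senescent shRB (0.0576) of experiment 1, or without either senescent vector array (0.0748 and 0.078) or senescent shRB replicate 2 (0.106) of experiment 2. The MCM6 call was lost without any 1 senescent array of experiment 2 (0.0648 to 0.158), without either senescent vector array of experiment 1 (0.103 and 0.0811) and without senescent shRB replicate 1 of experiment 1 (0.106).

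Probe sets of the same gene mostly moved together but not by the same amount. In senescent against growing vector cells of experiment 1 the 4 other tested probe sets of MCM4, MCM5 and MCM7 were called lower. For shRB against vector in senescent cells of experiment 1 the other probe sets gave 2.01 and 2.90 for MCM4, 1.68 for MCM5 and 2.40 for MCM7, each called higher, and 0.12 for MCM10, not called. In growing cells the second MCM5 probe set was called higher with shRB (1.27, adjusted p = 0.0451), while the representative one was not (1.14, adjusted p = 0.534). In confluent cells the other probe sets of MCM4 (0.59 and 0.54) and MCM5 (0.65) were not called for shRB. In low-serum vector cells the second MCM7 probe set was called (−1.75), and those of MCM4 (−0.97 and −0.86) and MCM5 (−0.47) were not. In confluent vector cells the second MCM5 probe set was not called (−0.69, adjusted p = 0.0568). The second MCM10 probe set differed in senescent against growing vector cells by −0.90 in experiment 1, with no test, and by −3.22 in experiment 2 (adjusted p = 6.83e-06).

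Genes that act with the MCM ring were set beside it. Of 9 origin licensing genes 8 were tested. In senescent against growing vector cells of experiment 1, GMNN (−3.09 ± 0.41, adjusted p = 8.36e-06), which encodes the CDT1 inhibitor geminin, and the MCM loaders CDC6 (−1.85, adjusted p = 0.00943) and CDT1 (−1.62, adjusted p = 0.00463) were lower, and none was higher, where 16.2% of all tested genes were lower. The senescent CDT1 mean (3.71) was near background. In experiment 2 those 3 and ORC6 (−1.49) were lower, where 20.6% were. The median of the list in experiment 1 was −0.58, against −1.95 for MCM2 to MCM7. With shRB in senescent cells of experiment 1 GMNN (2.72, adjusted p = 0.00012) and CDT1 (2.06, adjusted p = 0.0017) were higher and none was lower, where 5.98% of all tested genes were higher. In experiment 2 both were higher, with CDC6 (2.92), where 10.9% were. No tested gene of the origin recognition complex was called with shRB in either experiment.

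Of 14 genes of helicase activation 8 were tested. The GINS subunits GINS1 (−2.72, adjusted p = 0.000287) and GINS2 (−2.73, adjusted p = 1.48e-05), DONSON (−1.07, adjusted p = 0.00566) and TOPBP1 (−0.95, adjusted p = 0.0354) were lower in senescent than in growing vector cells of experiment 1, where 16.2% of all tested genes were, with a list median of −0.98. With shRB in senescent cells of experiment 1, where 5.98% of all tested genes were higher, 5 were higher and none lower: CDC7 (3.56 ± 0.24, adjusted p = 1.95e-09, with the vector mean of 3.63 near background), the kinase that phosphorylates the MCM ring, DONSON (2.25, adjusted p = 9.43e-06), GINS2 (2.22, adjusted p = 0.000505), TOPBP1 (1.20, adjusted p = 0.0199) and WDHD1 (1.03, adjusted p = 0.0181). The CDC7 mean was 4.02 in growing vector cells of experiment 1, below the filter level, and 7.19 in senescent shRB cells. Senescent shRB arrays alone could admit CDC7, so its call with shRB is not independent of the filter. In experiment 2 all 8 were lower in senescent vector cells, where 20.6% of all tested genes were, and 7 were higher with shRB, where 10.9% were. Among 5 relatives and partners of the MCM proteins 3 were tested. With shRB in senescent cells of experiment 1 only MCMBP, which binds MCM subunits, was higher (1.27, adjusted p = 0.00045), where 5.98% of all tested genes were. In experiment 2, 1 of the 3 was higher, where 10.9% were.

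Mitotic genes are given beside the ring subunits for comparison. All 11 tested of 12 were lower in senescent than in growing vector cells of experiment 1, where 16.2% of all tested genes were, with a median of −2.89. Among them were TOP2A (−4.71) and CCNB2 (−4.22), the senescent mean of CCNB2 (3.70) being near background. MKI67 (4.85 in growing and 3.74 in senescent vector cells) and BUB1 (5.10 and 3.16) were dim. Dim genes of these lists could pass the filter through growing or shRB arrays. The counts of lower genes, and of genes higher with shRB, are therefore not independent of the filter. With shRB in senescent cells of experiment 1 none was called, with a median of −0.12, against 2.73 for MCM2 to MCM7. In experiment 2, 4 of the 11 were higher with shRB (median 0.48), where 10.9% of all tested genes were. Against growing vector cells of experiment 2, senescent shRB cells had all 11 mitotic genes lower (median −3.0), where 18.4% of all tested genes were, while MCM2 to MCM7 had a median of −0.07. Of 6 housekeeping genes none was called in senescent against growing vector cells of either experiment. With shRB in senescent cells 1 was higher in each experiment, where 5.98% and 10.9% of all tested genes were. In experiment 1 it was HPRT1 (1.34, adjusted p = 0.00171).

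**Figure D5:**
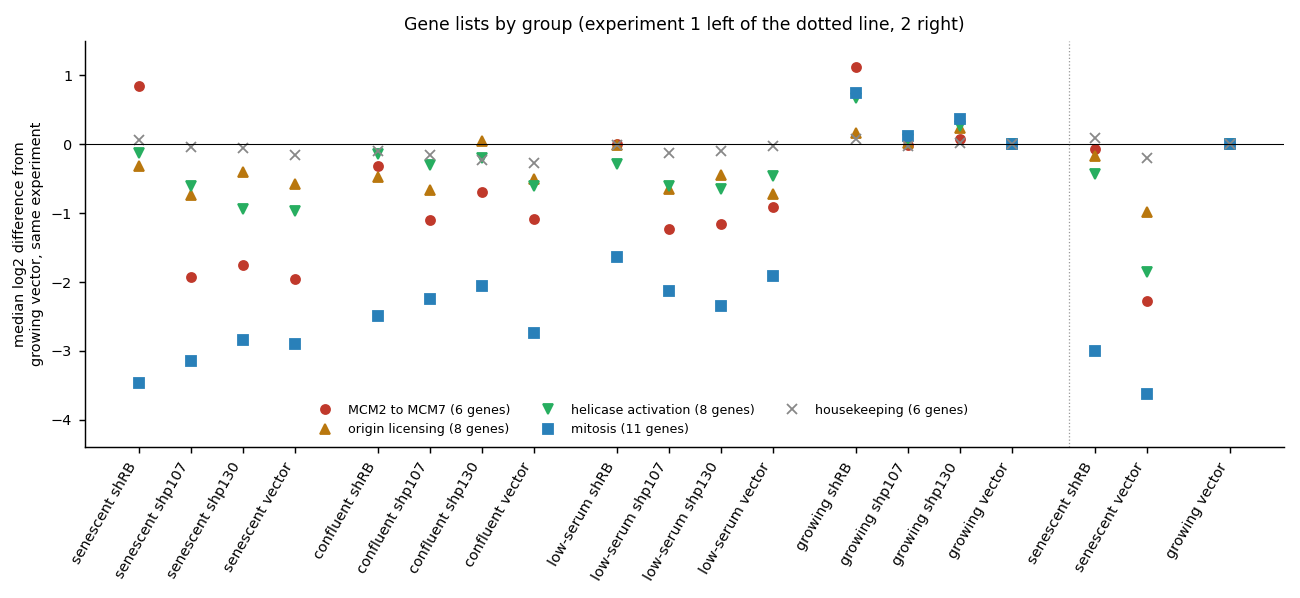
Median log2 difference from growing vector cells of the same experiment, for MCM2 to MCM7 and 4 other gene lists (points), by group. In senescent shRB cells the MCM2 to MCM7 median is above or near 0, while the mitotic median is at about −3 or below.

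Across the 16 group means of experiment 1 the ring subunits followed similar patterns, with Pearson correlations of 0.664 to 0.959 over the 15 pairs. MCM10 correlated with them at 0.497 to 0.77 and MCM8 at 0.191 to 0.743. The group means share the same arrays, and the correlations are given as a description. The genes most like the mean of the ring subunits, each centred, over these 16 groups were DYNC2I2 (0.97), EZH2 (0.944), HELLS (0.942), RRM1 (0.935) and PRIM1 (0.935) by Pearson correlation. HELLS (0.953) led by Spearman correlation, followed by RFC4 (0.944).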

How the data were processed

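Total RNA of IMR90 cells (1 µg) was labelled with biotin as cRNA and hybridised to Affymetrix arrays, 1 per sample, per the labels' protocols. The authors deposited log2 values, 1 per probe set and array, from 0.86 to 13.88, and these were used unchanged. Per the submitters' processing notes the software was GCRMA. It is not stated whether the 38 arrays were run through it as 1 set. Of 54613 probe sets 41091 named 1 gene in GEO's platform annotation, 1801 named several and were not used for genes, and 11721 stayed unnamed.

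Each gene was represented by its probe set with the highest mean over 38 arrays and tested if that exceeded log2 5 on at least 2 arrays of experiment 1 (8511 genes). limma 3.58.1 (R 4.3.3) fitted 1 mean per group, separately for each experiment (16 and 3 residual degrees of freedom), with eBayes and Benjamini-Hochberg adjustment over all tested genes per comparison. A call is an adjusted p under 0.05. Differences between experiments came from 1 fit of all 38 arrays (19 residual degrees of freedom). The number of arrays, 2 per group, limits the precision. The members, gene lists and comparisons were chosen with earlier results of these data known. Every member was named, and as most-like genes the 5 with the highest Pearson correlation and the leading ones by Spearman correlation. Gene lists are counted and not tested as sets. Scripts were tested on simulated data. Promoter windows come from RefSeq. Figures used matplotlib 3.10.9 and tables pandas 2.3.3 in Python 3.11.15.

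The alternatives were other normalizations, filters, probe set rules, priors, array sets and a replicate block, and leaving out each array in turn.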

Additional observations from a re-analysis of the deposited data

Results flagged for a closer look

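The difference between the shRB effect in senescent and in growing cells of experiment 1 was called for 4 ring subunits by the limma test of the difference itself: MCM4 (2.25), MCM5 (2.45), MCM6 (2.77) and MCM7 (1.88), in log2 units. The other tested probe sets of MCM4, MCM5 and MCM7 gave 0.40 and 1.27, 0.42, and 1.27 and were not called.

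The shRB effect in senescent cells differed between the experiments for MCM4 (1.48) and MCM6 (1.48), larger in experiment 1. The MCM4 call was lost in 7 and the MCM6 call in 10 of 16 alternatives, and with the mean of all probe sets of a gene the differences were 0.08 and 0.50. Those means include probe sets near background that failed the filter, and their part in the smaller differences was not tested. RB1 was lower by 5.32 with shRB in experiment 1 and by 2.28 in experiment 2, and its part was not tested.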

How the results depend on the processing

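The counts below include MCM10, also against growing cells of experiment 1, where growing arrays alone admitted it. Those counts therefore differ from the ones over 7 members given above, and nothing is concluded from the MCM10 calls in them. No member's called change turned direction under any alternative run. Normalization: with quantile normalization shRB against vector called 1 member in growing cells and 2 in low serum, and shRB against shp130 called 3 in low serum. It moved the median of all genes by 0.122 for senescent against growing vector cells of experiment 1, where 13.4% of tested genes were then lower and 49.1% of calls were higher, against 36.2% as deposited. The share of calls that were higher was also 88.9% against 71.4% for shRB against vector in low serum, 52% against 40.1% in confluence, 48% against 27.5% for confluent and 48.8% against 37.9% for senescent against growing shRB cells, and 51.3% against 39% for senescent against low-serum vector cells. Shifts of that median ran up to 0.155. Filter: without one the senescent minus growing difference in the shRB effect was called for 2 members and shRB against shp107 in low serum for 1. A stricter filter, log2 above 6, left dim members untested. Probe sets: with the mean of a gene's probe sets, those near background included, the counts were 2 for shRB against vector in low serum and 0 for shp130 against vector in senescence. They were 2 for the senescent minus growing difference, 0 for shRB against shp107 and 2 for shRB against shp130 in low serum. With every probe set tested, a gene counted if any was called, they were 1 for shRB against vector in growing cells, and 4 in growing cells and 2 in low serum for shRB against shp130. Models: a trended and robust prior gave 2 for shRB against vector and 3 for shRB against shp130 in low serum. 1 fit of all 38 arrays gave 1 and 2 for shRB against vector in growing cells and low serum, 2 for shp130 against vector in senescence and 3 for shRB against shp130 in low serum. Fits of only the groups compared gave 1 for confluent against growing vector cells, 0 for shRB against vector in low serum and 0 in confluence, 0 for shp130 against vector in senescence, 2 for the senescent minus growing difference, 0 for shRB against shp107 and 0 for shRB against shp130 in low serum, and 4 for shRB against shp130 in growing cells. These fits have fewer residual degrees of freedom. Between the experiments, the difference in the shRB effect was called for neither MCM4 (0.08) nor MCM6 (0.50) with the mean of probe sets, for neither in fits of only the groups compared (adjusted p = 0.0527 and 0.0599), and for MCM4 alone with median centring (MCM6, adjusted p = 0.055).

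The labels do not say that replicate numbers pair the arrays. Deviations of same-numbered arrays correlated at −0.376 to 0.49 over 120 pairs of groups in experiment 1 (38 above 0.1) and at −0.136 to 0.625 over 3 pairs in experiment 2 (1 above 0.1), so the numbers were not taken as pairs. With the replicate block shp130 against vector in senescence called 2 members instead of 1, and no other count moved by over 1.5 times.

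Leaving out 1 array in turn gave counts of called members of 0 to 3 for low-serum and 2 to 5 for confluent against growing vector cells, and 5 to 6 and 7 to 8 for senescent against growing vector cells of experiments 1 and 2. For shRB against vector they were 0 to 3 in low serum, 1 to 3 in confluence and 5 to 7 in senescence in either experiment. For senescent cells they were 0 to 1 with shp107 and 0 to 2 with shp130 against vector. The senescent minus growing difference was called for 2 to 3 members. They were 0 to 3 for shRB against shp107 in low serum, and for shRB against shp130 they were 0 to 2 in growing cells, 0 to 4 in low serum and 5 to 6 in senescence. A lone array was assumed to vary like the other groups. The limits are 2 arrays a group, no label of separate cultures and dim MCM2, MCM5 and MCM10 probe sets, above log2 5 on 13, 13 and 5 of 32 arrays. The causes of these shifts were not tested.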
